A study of Mus musculus with 6 samples.

Results

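The outer segment disc and matrix genes described here are 9 genes, Prph2, Rom1, Rp1, Rp1l1, Prom1, Cdhr1, Tulp1, Impg1 and Impg2, taken by name from the 52636 genes of the count table, of which 32905 had at least 1 unique molecular identifier (UMI). They were read in single-cell RNA sequencing (10x Genomics 3′ kit) of retinas of male C57BL/6J mice aged 12 months, 3 Dram2 wt/wt and 3 Dram2 ko/ko. The ko/ko line carries a constitutive CRISPR/Cas9 deletion of exon 4 of Dram2 in every cell, so that no gene described here was itself targeted. Replicate 3 of each genotype formed batch 1 and replicates 1 and 2 formed batch 2. The labels give 3 retinas per genotype, while a protocol text speaks of 1 sample of each, and nothing says which retinas came from separate mice, so that p-values measure the spread between these 6 libraries.

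The outer segment of a rod or cone is a modified cilium that holds a stack of membrane discs with the proteins of phototransduction. New discs are made at its base throughout life and old ones are shed at the tip to the retinal pigment epithelium (RPE), so that photoreceptors keep making disc proteins. Peripherin 2 (Prph2) and its partner Rom1 are tetraspanins that shape the disc rim, Rp1 and Rp1l1 are microtubule proteins of the axoneme along which discs are lined up, Prom1 and Cdhr1 are membrane proteins of the site where discs form, and Tulp1 takes part in protein transport to the outer segment. Impg1 and Impg2 are proteoglycans of the interphotoreceptor matrix, the material between photoreceptors and RPE. Variants in several of them are known causes of inherited retinal disease in humans.

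In the mouse genome GRCm38 (GENCODE M21 annotation), the rim gene Prph2 lies at chr17:46910459-46924933 on the plus strand and Rom1 at chr19:8927391-8929356 on the minus strand, each with 3 exons. Rp1 (chr1:3999557-4409241, minus strand) and Rp1l1 (chr14:63992506-64035025, plus strand) have 4 exons each. Prom1 (chr5:43993620-44102032, 25 exons), Cdhr1 (chr14:37077857-37098347, 17 exons) and Tulp1 (chr17:28351515-28365222, 15 exons) lie on the minus strand. Impg1 lies at chr9:80313330-80465481 on the minus strand with 17 exons and Impg2 at chr16:56204313-56273756 on the plus strand with 20 exons. The exon counts are those of a single transcript, the longest with a consensus coding sequence, while the positions span the whole gene. Another annotated transcript on the same strand, Gm42716, overlaps Prom1 and was listed with 538 UMIs of its own beside 9295 for Prom1, so that the division of reads between them is uncertain. An antisense transcript with 87 UMIs overlaps Prom1, and a pseudogene with 152 UMIs lies on the opposite strand of Impg1, which had 3663.

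Promoter sequences were taken from RefSeq (GRCm38.p6), which matched 7 of the 9 genes in 8 windows, and the 250 bases before the RefSeq start were searched on both strands. Rp1 and Rp1l1 were not matched. The letters TAATCC, bound by the photoreceptor factors CRX and OTX2, stood in 0 of the 8 windows, against 6.25% of 32851 promoters of the same length. The NRL core TGCTGA likewise stood in 0 of the 8, against 16.1% of all. The shorter core TAATC, which is contained in TAATCC and was searched after the longer one gave no match, stood in 4 windows of 4 genes, Prph2, Prom1, Impg1 and Impg2, against 19.8% of all promoters. A match is a run of letters and not a shown binding site. The windows of the rim pair and of the matrix pair are printed 5′ to 3′ on the strand of each gene, since these 2 pairs share a function and are compared below, and the capitals mark TAATC or its complement GATTA.
Prph2, chr17:46910228-46910477, plus strand: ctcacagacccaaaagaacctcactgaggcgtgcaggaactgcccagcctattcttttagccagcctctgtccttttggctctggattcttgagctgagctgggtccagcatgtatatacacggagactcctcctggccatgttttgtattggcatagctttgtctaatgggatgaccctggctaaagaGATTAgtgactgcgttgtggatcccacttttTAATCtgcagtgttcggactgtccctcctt
Rom1, chr19:8929357-8929606, minus strand: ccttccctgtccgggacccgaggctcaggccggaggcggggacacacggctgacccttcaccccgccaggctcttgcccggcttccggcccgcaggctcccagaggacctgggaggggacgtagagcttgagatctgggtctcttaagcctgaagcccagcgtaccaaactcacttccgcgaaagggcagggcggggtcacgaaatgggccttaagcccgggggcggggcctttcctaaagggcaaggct
Impg1, chr9:80465439-80465688, minus strand: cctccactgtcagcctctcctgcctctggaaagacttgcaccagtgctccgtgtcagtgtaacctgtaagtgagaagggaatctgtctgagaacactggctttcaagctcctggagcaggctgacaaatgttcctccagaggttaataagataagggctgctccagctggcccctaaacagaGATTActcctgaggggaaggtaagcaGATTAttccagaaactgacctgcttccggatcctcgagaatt
Impg2, chr16:56204063-56204312, plus strand: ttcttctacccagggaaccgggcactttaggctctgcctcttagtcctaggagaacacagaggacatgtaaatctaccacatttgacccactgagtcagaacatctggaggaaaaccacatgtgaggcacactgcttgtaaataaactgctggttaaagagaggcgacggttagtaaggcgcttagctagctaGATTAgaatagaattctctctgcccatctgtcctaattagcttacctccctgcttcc
The capitals begin 61 and 30 bases before the start in Prph2, 68 and 42 bases before it in Impg1 and 57 bases before it in Impg2, while the window of Rom1 holds none.

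The table held 46375 cells with 3463728 to 6563762 UMIs per retina. Levels are given as CPM, the UMIs of a gene divided by all UMIs of the same retina and cell class and scaled to the same total in every sum. The 9 genes took 1.41% to 1.67% of the UMIs of a retina. The authors' 5 cell types (photoreceptors, interneurons, glia, mesenchymal cells, RPE) were used as deposited. Summed over each list, rod, cone, bipolar, Müller glia and RPE markers were highest in the type they belong to. The sums of amacrine markers (1136 CPM in glia, 713 in interneurons) and ganglion cell markers (113 in mesenchymal cells, 38.4 in interneurons) were not, each through 1 gene: Pax6 gave 1113 of the sum in glia and Rbpms 107 of that in mesenchymal cells, while the other 5 amacrine markers were higher in interneurons than in glia and the other 3 ganglion cell markers higher there than in mesenchymal cells. Single markers also departed from their type: the cone markers Gnb3, Gngt2 and Cngb3 were higher in interneurons than in photoreceptors as a whole, and the RPE marker Best1 had 0 UMIs in RPE cells. The endothelial marker Kdr was higher in glia (400 CPM) than in mesenchymal cells (138). In glia, the fibroblast markers Col1a1 and Dcn had 19 and 20 UMIs. The cells typed as mesenchymal held markers of several kinds of cell: 8 microglial markers summed to a mean of 13588 CPM, 5 endothelial markers to 6133 and 4 pericyte markers (Pdgfrb, Rgs5, Kcnj8, Abcc9) to 2344, while the fibroblast markers Col1a1 and Lum were at 0 UMIs and Dcn had 1. Mesenchymal is used below as the deposited name. Rod RNA was found in every type. The 11 rod markers took 6.58% to 10.2% of UMIs in rod-like cells, 2.13% to 3.11% in cone-like cells, and between 0.559% and 1.46% in a retina's interneurons, glia, mesenchymal cells or RPE cells. The preparation was one of neural retina, in which RPE cells are carried over and numbered 10 to 25 per library.

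All 9 genes were highest in photoreceptors. Photoreceptors held 91.3% (Cdhr1) to 96.2% (Impg1) of the UMIs of each gene, and their level exceeded that of the next type in 6 of 6 retinas for each gene. For 8 of the 9 genes the 6 photoreceptor values lay above all values of the other 4 types, a pattern shown by 8.71% of the 5019 genes with at least 1000 UMIs. Rp1l1 was the exception, since the mesenchymal cells of 1 retina reached 74.7 CPM on 7 UMIs. Because the authors' types were themselves drawn from these counts, the levels are a description and were not tested between types. Each molecule is counted once near its 3′ end, so that levels do not grow with transcript length, although capture can differ between genes.

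The rim genes were the most abundant of the 9. Rom1 stood at 7120 ± 1690 CPM in photoreceptors (SD, n = 6), with 5495, 5366 and 8950 in wt/wt 1, 2 and 3 and 7530, 6206 and 9171 in ko/ko 1, 2 and 3. Prph2 stood at 5951 ± 1028, with 5047, 5008 and 7047 in wt/wt and 5867, 5365 and 7374 in ko/ko. Both were highest in replicate 3 of either genotype, the 2 retinas of batch 1. Interneurons came next for both, at 1438 ± 241 for Rom1 and 811 ± 50.5 for Prph2, and the values of interneurons and of the following types overlapped.

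Of the axoneme genes, Rp1 stood at 1813 ± 598 CPM in photoreceptors and at 147 to 168 as the mean of each other type. The ratio to glia, the next type, was 10.8. The next type became mesenchymal cells without the highest doublet scores or without ko/ko 2, and RPE cells without wt/wt 2. Rp1l1, its paralog, stood at 93.5 ± 13.1, with a ratio of 3.39 to mesenchymal cells.

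Among the genes of the disc-forming base, Prom1 stood at 397 ± 50.5 and Cdhr1 at 266 ± 72.7 in photoreceptors. The level of Prom1 was 2.49 times that of mesenchymal cells, the next type, at 159 ± 75.6, where it was lowest in wt/wt 2 (64.0) and highest in ko/ko 3 (270). Cdhr1 came next in RPE cells at 93.6 ± 91.0, on 16 UMIs in all, with 0 UMIs in ko/ko 2 and ko/ko 3. Tulp1, the transport gene, stood at 2860 ± 477 in photoreceptors and 513 ± 281 in RPE cells, the next type. Interneurons were close at 506 ± 69.5 and came next without ko/ko 3 or without wt/wt 1.

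The matrix genes were low. Impg1 stood at 169 ± 91.5 CPM in photoreceptors and Impg2 at 107 ± 38.5. In RPE cells, Impg1 had 1 UMI in the 6 retinas together, and in the 5 retinas with none a count of 0 allows a level of up to 83.4 to 176 CPM (3 counts of the total, counting error alone), a limit below the photoreceptor level of the same retina in 4 of these 5 and above it in ko/ko 3 (176 against 107). In the plot of levels by cell type, the photoreceptor points of each gene stand apart from the rest except in Rp1l1.

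**Figure D1:**
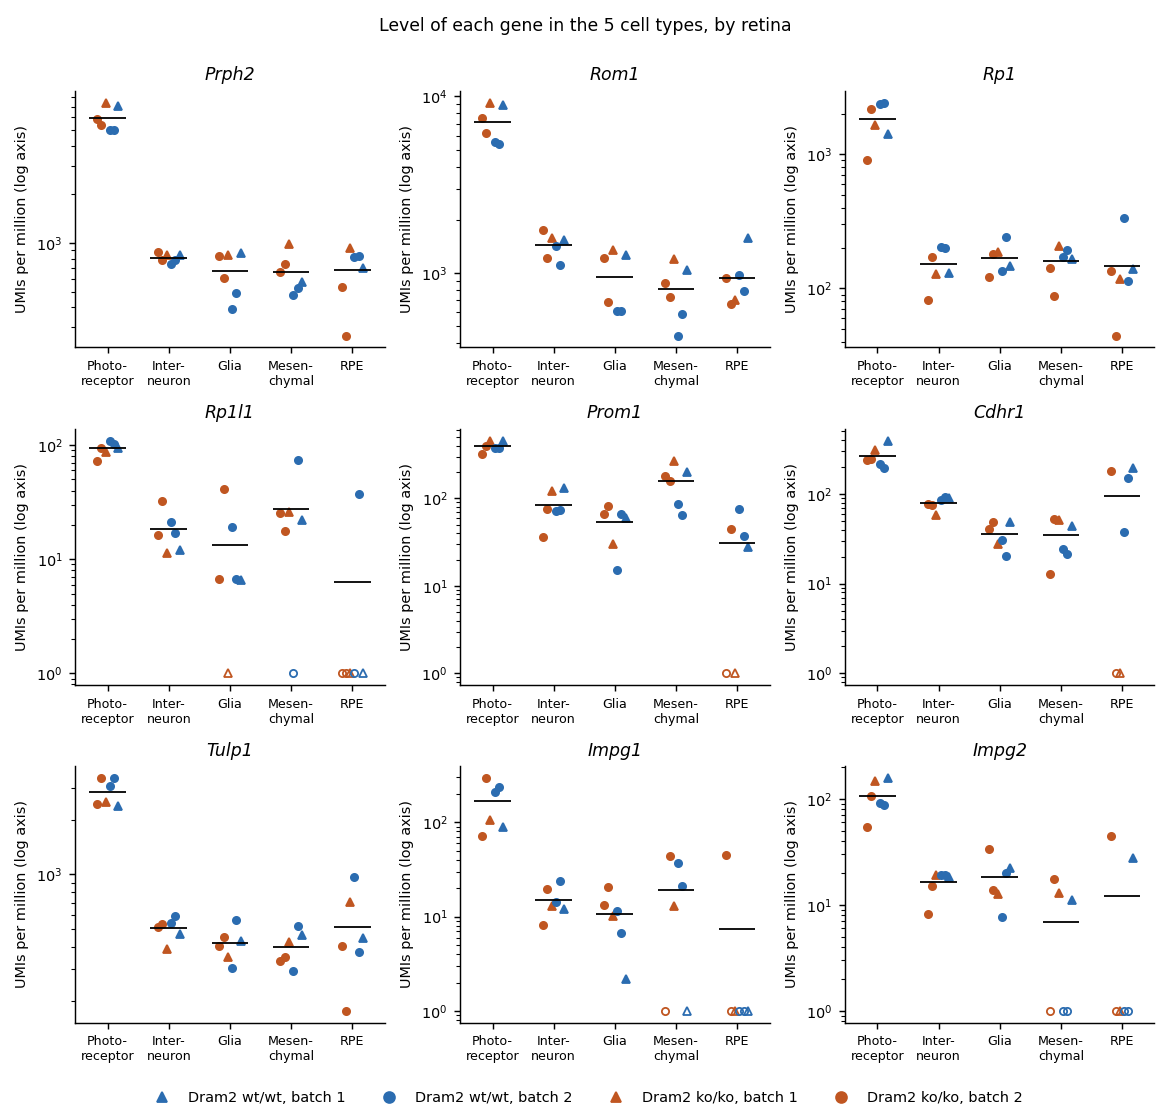
Level of each gene in the 5 cell types as CPM on a log axis, with 1 point per retina, colour for genotype, shape for batch and a bar at the mean of 6 retinas. Open points at 1 stand for 0 UMIs, and photoreceptor means run from 93.5 (Rp1l1) to 7120 (Rom1).

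The photoreceptors were then divided into rods and cones, which build their outer segments differently: rod discs are closed and separate from the outer membrane, whereas cone discs stay joined to it. Photoreceptors were clustered, and those of the cluster with 7 cone markers among its 10 leading genes are called cone-like here. There were 887 of these cells, 102 to 201 per retina, with medians of 1731 to 2584 UMIs per cell. The other 41472 photoreceptors were taken as rod-like, with medians of 391 to 501 UMIs per cell. The 11 cone markers summed to 62062 to 72797 CPM in cone-like cells and to 757 to 1270 in rod-like cells. Since both classes come from the same counts, differences between them are given without a test.

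The 9 genes fell into groups that differed in direction. Rp1, Rom1, Prph2, Prom1 and Impg1 were lower in cone-like than in rod-like cells in 6 of 6 retinas, Cdhr1 and Impg2 were higher in 6 of 6, and Rp1l1 and Tulp1 went both ways. Lower and higher refer to CPM, a share of the UMIs of a class, and cone-like cells held more UMIs per cell. UMIs per cell, pooled over retinas, were higher in cone-like cells also for the genes with lower CPM. Prph2 had 4313 UMIs in 887 cone-like and 123687 in 41472 rod-like cells, and Rp1 had 886 and 37392. Of the 3750 genes with at least 1000 UMIs in photoreceptors, 25.8% were lower and 24.2% higher in cone-like cells of all 6 retinas, and the median of all of them was -0.01 on the log2 scale. The second cluster with cone markers among its leading genes, 1304 shallow cells with a median of 316.5 UMIs, held more rod-marker than cone-marker UMIs and was left among the rods. Counting it as cone-like, an alternative chosen after the data were seen, kept the sign of every mean difference and moved that of Rp1 from -1.95 to -1.26, more than 1.5 times.

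Both rim genes had lower CPM in cone-like cells. Prph2 stood at 2468 ± 156 CPM in cone-like and 6273 ± 1142 in rod-like cells, a log2 difference of -1.33 ± 0.22 (SD, n = 6), or 2.51-fold. Rom1 stood at 2403 ± 396 and 7554 ± 1849, a difference of -1.63 ± 0.22, or 3.103-fold. Rom1 exceeded Prph2 in the mean of rod-like cells, while in cone-like cells the means of both lay within 1 SD of each other. Batch moved with the size of the difference: it averaged -1.19 in batch 2 and -1.60 in batch 1 for Prph2, and -1.50 and -1.89 for Rom1.

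The 2 axoneme genes went different ways. Rp1 showed the largest difference of the 9, -1.95 ± 0.07, or 3.87-fold lower in cone-like cells (500 ± 163 against 1933 ± 638 CPM), and its differences ran only from -2.02 to -1.86 across the 6 retinas although its level in rods ran from 947 to 2566. Rp1l1 stood at 112 ± 22.4 in cone-like and 91.9 ± 12.97 in rod-like cells, a difference of 0.27 ± 0.30, and was higher in cones in 5 of 6 retinas. The batch 1 retinas gave Rp1l1 differences of 0.06 (wt/wt 3) and -0.16 (ko/ko 3), so that a difference between the classes did not hold within that batch.

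The 2 genes of the disc-forming base also went different ways. Cdhr1 was 2.23-fold higher in cone-like cells, at 530 ± 103 against 241 ± 65.6 CPM, a difference of 1.15 ± 0.14 that ran from 0.99 to 1.34. Prom1 was 1.77-fold lower in cone-like cells, at 232 ± 20.2 against 412 ± 55.5, a difference of -0.83 ± 0.13. Tulp1 stood at 3116 ± 652 in cone-like and 2839 ± 461 in rod-like cells, and its difference of 0.12 ± 0.12 was 0.20 in batch 2 and -0.03 in batch 1.

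The mean differences of the matrix pair also had opposite signs. Impg2 was higher in cone-like cells of 6 of 6 retinas, by 0.51 ± 0.24 on the log2 scale, at 148 ± 52.0 against 104 ± 37.0 CPM. Impg1 was lower in 6 of 6, by 0.31 ± 0.23 in the mean, at 144 ± 86.4 against 171 ± 92.2. Its difference was only -0.10 in wt/wt 1 and -0.10 in wt/wt 2. Cone-like cells held 247 UMIs of Impg1 and 279 of Impg2 in all, and counting error was not set beside these differences. The levels of both varied between retinas by more than they differed between the classes, so that the retinas of both classes overlapped and only the comparison within a retina separated them. In the plot of differences by retina, the order of the genes runs from Rp1 at the left to Cdhr1 at the right.

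**Figure D2:**
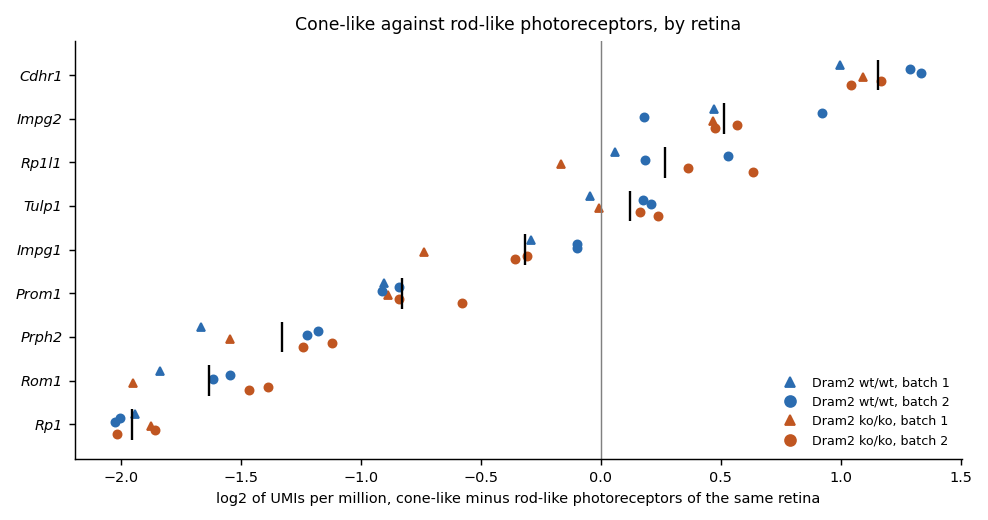
Difference between cone-like and rod-like photoreceptors of the same retina, as log2 of CPM, with 1 point per retina, colour for genotype, shape for batch and a bar at the mean. Points to the right of 0 are higher in cones, and means run from -1.95 (Rp1) to 1.15 (Cdhr1).

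Among other outer segment genes, taken from lists of disc and membrane proteins, cilium and axoneme partners and matrix proteins, those with at least 1000 UMIs in photoreceptors were set beside the 9. Of 19 disc genes, 16 were lower and 2 higher in cone-like cells of all 6 retinas, with a median log2 difference of -2.44. The rod channel subunit Cnga1 stood at -3.72 ± 0.40, further from 0 than any of the 9, and the 2 that were higher were Guca1a at 0.51 ± 0.09 and Rd3 at 0.32 ± 0.14. Of 9 cilium and axoneme genes, 5 were lower and 1, the protocadherin Pcdh15, was higher at 1.98 ± 0.22. Both matrix genes, Rbp3 (1.15 ± 0.24) and Egflam (0.53 ± 0.34), were higher in cone-like cells of all 6 retinas, as Impg2 was and Impg1 was not.

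Cells of the cone-like cluster were deeper than the rod-like cells, which include the shallow second cluster with cone markers. The share of cells with at least 1 UMI of a gene was therefore compared after each cell was thinned to 300 UMIs. Thinning left out 13963 of 41472 rod-like and 7 of 887 cone-like cells. Prph2 was then found in 81.5% ± 4.37 of rod-like and 49.1% ± 5.63 of cone-like cells (SD over 6 retinas), with 85.2% and 95.9% before thinning. Glia, at a median of 1683 UMIs against 421 in rod-like and 1911 in cone-like cells, should lack disc genes, and showed 18.4% ± 4.16 after thinning and 52.9% before. Cdhr1 was found in 6.89% ± 1.95 of rod-like, 13.2% ± 2.86 of cone-like and 1.25% ± 0.871 of glial cells. Rp1 was found in 41.5% ± 11.2, 12.2% ± 2.64 and 5.18% ± 2.26. Before thinning the shares were 10.3%, 59.1% and 5.58% for Cdhr1 and 51.3%, 55.3% and 19.8% for Rp1. The thinned shares of Impg1 and Impg2 were 4.91% and 3.01% in rods, 3.96% and 3.88% in cones and 0.749% and 0.405% in glia, with 7.16% and 4.75%, 22.9% and 24.6%, and 1.74% and 2.89% before thinning.

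Because rod RNA reached every class, the UMIs of each gene were set beside the number that would be there if they came with rod RNA alone, at the ratio of the gene to the 11 rod markers in the rod-like cells of the same retina. This number assumes that the rod RNA in a class has the mix of genes of the rod-like cells. That mix differed between rod-like cells rich and poor in Malat1, as given below. Whether the rod RNA in other classes has it was not tested. The rod markers themselves spread around the expected ratio, from 0.54 (Cnga1) to 1.25 (Pde6g) in interneurons, from 0.65 to 1.48 in glia and from 0.59 to 1.48 in mesenchymal cells. In glia, 8 of the 9 genes lay inside the spread of the markers, at 0.74 (Rp1) to 1.21 (Tulp1), and Impg1 lay below it at 0.52 on 14 UMIs. In mesenchymal cells, Prom1 stood above every rod marker, with 84 UMIs where 24.03 were expected, a ratio of 3.50 that exceeded 1 in 6 of 6 retinas (1.56 to 5.09). Rp1l1 stood at 2.83 there, on 15 UMIs. In these cells the endothelial markers summed to 3682 to 7615 CPM, the microglial markers to 4366 to 20482 and the pericyte markers to 1558.5 to 3929. Which of these kinds of cell held the Prom1 was not tested.

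In interneurons, 5 of the 9 genes stood above every rod marker. Cdhr1 reached 2.28 times the expected number (332 against 146 UMIs, 1.81 to 3.69 in the 6 retinas) and Prom1 1.91 times, with 1 retina below 1 (0.72 to 2.32). Rom1 and Tulp1 reached 1.40 and 1.39 times, above 1 in 6 of 6 retinas, and Rp1l1 1.35 times on 67 UMIs. Prph2, the partner of Rom1, stood at 0.96, or 1.10 with the 8 rod markers described next. Impg2 stood at 1.16, Impg1 at 0.76 (61 against 79.8 UMIs) and Rp1 at 0.62 (620 against 997), below 1 in 6 of 6 retinas for Rp1, all within the spread of the rod markers. The 11 cone markers summed to 2927 to 5135 CPM in interneurons, against 757 to 1270 in rod-like cells. Much of the sum in interneurons came from Gnb3 (mean 1498) and Gngt2 (804), which were higher there than in photoreceptors as a whole. The other cone markers were also higher in interneurons than in rod-like cells, for instance Opn1sw (554 against 191), Arr3 (280 against 159) and Gnat2 (356 against 50.5). The sum is thus not a measure of cone RNA alone, and the part of cone RNA in the values of the 9 genes was not tested. In RPE cells, 4 of the 9 genes had more than 20 UMIs expected. Of these, Tulp1 stood above every rod marker (77 against 53.9 UMIs, 1.43 times, above 1 in 4 of 6 retinas) and Rp1 below every one (23 against 37.9, 0.61 times). Cdhr1 had 16 UMIs where 4.59 were expected and 0 in 2 retinas.

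In cone-like cells the choice of rod markers decided the values. Sag, Pde6g and Gngt1 stood there at 78.6%, 60.8% and 43.4% of their level in rods, while the other 8 markers stood at 7.81% (Cnga1) to 20.4% (Reep6). With all 11 markers, 7 of the 9 genes exceeded the expected number in 6 of 6 retinas, Rom1 stood at 1.03 times and Rp1 at 0.84 times. The 11 markers themselves spread from 0.27 (Cnga1) to 2.52 (Sag) there, so that 5 genes (Rp1l1, Cdhr1, Tulp1, Impg1 and Impg2) stood above every marker and Prph2, Rom1, Rp1 and Prom1 inside the spread. With the 8 markers, chosen after the data were seen by leaving out the 3 that were high in cones, which raises every ratio, all 9 exceeded the expected number in 6 of 6 retinas, Rp1 at 1.97, Rom1 at 2.41 and Prph2 at 2.96 times, up to 11.2 for Impg2 and 16.8 for Cdhr1. The plot of observed over expected UMIs shows this shift in the cone-like cells and little of it in the other types.

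**Figure D3:**
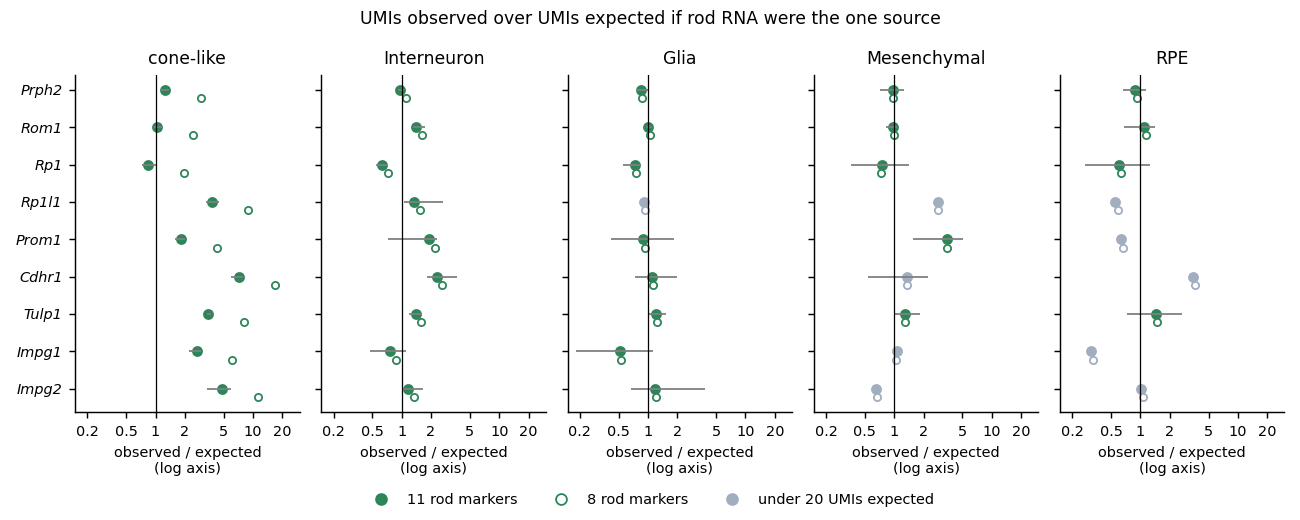
UMIs observed over UMIs expected from rod RNA alone (log axis) for each gene in cone-like cells and 4 other types, summed over 6 retinas. Filled points use 11 rod markers, open points the 8 left without Sag, Pde6g and Gngt1, grey points have fewer than 20 UMIs expected, and lines span the 6 retinas where each has a UMI. Prom1 in mesenchymal cells (3.50) stands to the right of 1 under both.

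The comparison of the genotypes asks whether loss of Dram2 alters the outer segment genes. In edgeR (quasi-likelihood test, Benjamini-Hochberg adjustment over all genes tested), 0 of the 9 genes were called at an adjusted p under 0.05 in rod-like cells (12523 genes tested, 0% called), and 0 of 9 in cone-like cells (5182 tested, 0% called). Across all genes, the unadjusted p was under 0.05 for 84 genes in rod-like and 59 in cone-like cells in edgeR, for 96 and 56 in limma-voom and for 44 and 8 in DESeq2, and none of the 9 genes was among those of edgeR. With batch as a covariate these counts in edgeR were 274 and 139, with the replicate block 239 and 167, and without 1 retina they ran from 30 to 798 and from 34 to 263 (798 and 263 without wt/wt 3), with 0 genes called in each. Of the genes that passed the filter on low counts in the other types, 0 of 6 were called in interneurons, 0 of 5 in glia, 0 of 5 in mesenchymal cells and 0 of 3 in RPE cells, again with 0% of all genes called. The paper, with limma-voom on such sums, reported no significant genes in photoreceptors at an FDR under 0.05. It reported significant genes in interneurons, mesenchymal cells and RPE cells. None of the 9 is among them, while Unc119 in mesenchymal cells and Gnb1 and Gngt1 in RPE cells are. In limma-voom, 0 genes were called here in these types, and the source of the difference was not tested.

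The rim genes did not separate the genotypes in rods. Prph2 in rod-like cells stood at 5294, 5256 and 7675 CPM in wt/wt 1, 2 and 3 and at 6079, 5616 and 7720 in ko/ko 1, 2 and 3, a fitted log2 change of 0.11 ± 0.27 (SE; 95% interval -0.51 to 0.73). The fitted change of Rom1 was 0.19 ± 0.31 (-0.52 to 0.90). In cone-like cells the values of Prph2 did not overlap, at 2263, 2320 and 2423 in wt/wt and 2575, 2582 and 2644 in ko/ko, and its change was 0.16 ± 0.19 (-0.26 to 0.57; adjusted p in edgeR 0.999). Prph2 was 1 of the 9 genes without overlap in cones, beside 6.32% of the 3182 genes with at least 100 UMIs there.

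The axoneme genes were both lower in the mean of the ko/ko retinas. Rp1 in rod-like cells stood at 2520, 2566 and 1551 in wt/wt and at 947, 2292 and 1723 in ko/ko, so that ko/ko replicate 1 stood apart below the other 5, and the fitted change of -0.39 ± 0.36 became -0.09 without that retina. The same retina was lowest for Rp1 in cone-like cells, at 234 against 404 to 640 in the other 5. Rp1l1 did not overlap in rod-like cells, with 109, 99.5 and 94.3 in wt/wt and 69.9, 91.4 and 87.9 in ko/ko and a change of -0.26 ± 0.18 (-0.67 to 0.16; adjusted p in edgeR 0.998). It was 1 of the 9 genes without overlap in rods, beside 5.2% of the 11110 genes with at least 100 UMIs there, and in cone-like cells its genotypes overlapped.

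The fitted changes of Prom1, Cdhr1 and Tulp1 were -0.03 ± 0.22, 0.04 ± 0.30 and -0.07 ± 0.24 in rod-like cells and 0.06 ± 0.22, -0.04 ± 0.24 and -0.08 ± 0.24 in cone-like cells. For Cdhr1 the sign differed between the batches. In rod-like cells of batch 2 it stood at 191 and 175 in wt/wt and 224 and 223 in ko/ko. In batch 1, which holds 1 retina of each genotype, it stood at 352 in wt/wt and 284 in ko/ko. Batch and the spread between single retinas cannot be told apart here. The widest interval of these 3 genes in rods was that of Cdhr1, from -0.63 to 0.72. Outside photoreceptors, the genotypes did not overlap for Prph2 in mesenchymal cells (479, 523 and 573 in wt/wt, 666, 745 and 989 in ko/ko) and for Cdhr1 in interneurons (85.4, 91.4 and 90.3 in wt/wt, 77.3, 75.5 and 58.7 in ko/ko), neither of them called. Among all genes with at least 100 UMIs in the class, 18% of 863 in mesenchymal cells and 6.08% of 7358 in interneurons did not overlap either. Prph2 in mesenchymal cells stood at 0.97 times the number expected from rod RNA. In sums over cells, fewer cells of a kind and less RNA per cell cannot be told apart.

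The matrix genes varied most between retinas relative to their mean. Impg1 in rod-like cells stood at 213, 238 and 91.4 in wt/wt and at 73.2, 300 and 110 in ko/ko, and in cone-like cells at 199, 223 and 74.8 and at 57.1, 242 and 65.9. The same 3 retinas, wt/wt 1, wt/wt 2 and ko/ko 2, were high in both classes, and these are the batch 2 retinas other than ko/ko 1. Its change of -0.15 ± 0.54 in rods has an interval from -1.38 to 1.08, became -0.95 without ko/ko 2 and 0.21 without ko/ko 1. Impg2 had a fitted change of -0.09 ± 0.38 and was lowest in ko/ko 1 in both classes, at 53.4 and 74.2 CPM. Batch 1 was high for Impg2, at 150 and 143 in rods, and low for Impg1.

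A term for the difference of the genotype effect between cone-like and rod-like cells, with the retina as a block, was called for 0 of the 9 genes (12206 tested, 0% called, 456 at an unadjusted p under 0.05 in edgeR, 456 in limma-voom and 91 in DESeq2), and its estimates ran from -0.29 ± 0.24 (Impg1) to 0.08 ± 0.20 (Prom1). The plot of levels by genotype shows overlapping values in all but Rp1l1 in rods and Prph2 in cones.

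**Figure D4:**
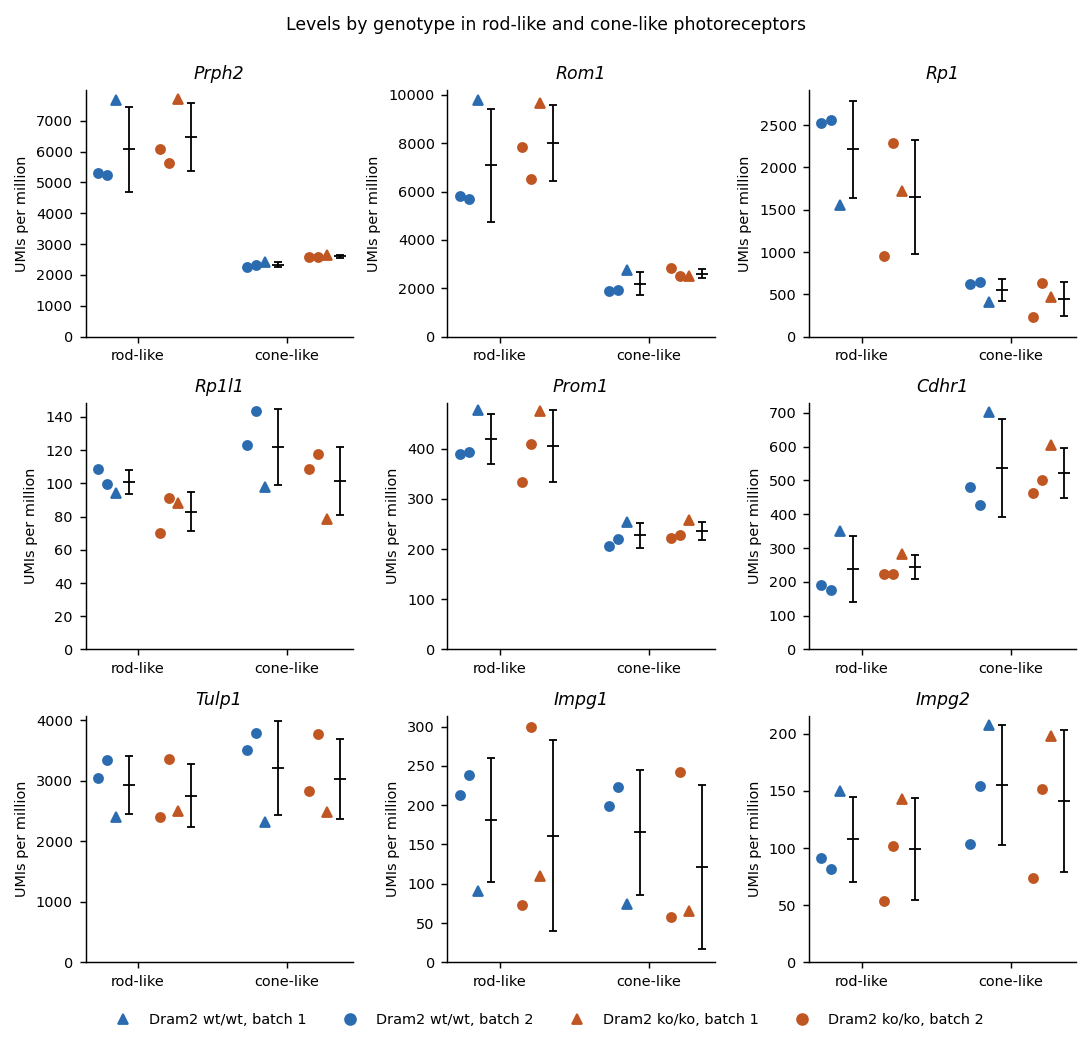
Level of each gene as CPM in rod-like and cone-like photoreceptors by genotype, with 1 point per retina, shape for batch, and a bar with whiskers for the mean ± SD of 3 retinas. ko/ko replicate 1 is the lowest point of Rp1, Impg1 and Impg2 in both classes, for instance 947 for Rp1 in rod-like cells.

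Rod-like cells differed widely in their share of Malat1, a nuclear noncoding RNA, which took 9.20% to 18.3% of rod UMIs by retina. The rod-like cells of each retina were ranked by this share and cut into 4 equal groups, and the group with the highest share was compared with the group with the lowest (1440 to 2045 cells each), with the retina as a block and Malat1 itself left out. The groups are a range of a continuous share: cells of the Malat1-rich group started at 15.96% to 23.98% Malat1 by retina and those of the Malat1-poor group ended at 6.26% to 15.8%. The Malat1-rich group was shallower, with medians of 210 to 361 UMIs against 437 to 703, and had a lower median mitochondrial share, 0% to 0.83% against 0.375% to 4.60%.

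The groups were drawn from the same counts, by the share of Malat1, and also differ in depth. The p-values below therefore describe how steady a difference was between the 6 retinas and are not independent evidence. In this comparison 7 of the 9 genes were called, beside 57.1% of the 8155 genes tested. The 7 included 6 that were lower in Malat1-rich cells, beside 27.6% of all genes, and 1 that was higher, beside 29.5%. Rp1 was the gene that rose, by 0.62 ± 0.10 on the log2 scale (SE; adjusted p in edgeR 6.90e-06) in the fit, which uses TMM factors. In CPM, which lack those factors, its means were 1592 ± 732 in the Malat1-poor and 3036 ± 801 in the Malat1-rich group, and its log2 difference per retina ran from 0.55 (wt/wt 1) to 1.48 (ko/ko 1), above 0 in 6 of 6 retinas.

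In the same fit, Cdhr1 fell by 1.21 on the log2 scale (SE 0.12; adjusted p in edgeR 2.48e-09) and Impg1 by 1.18 (SE 0.13; adjusted p in edgeR 9.12e-09). In CPM without the TMM factors, Cdhr1 stood at 369 ± 99.98 in the Malat1-poor and 210 ± 33.3 in the Malat1-rich group, and both genes were lower in 6 of 6 retinas. Rom1 fell by 0.73, Tulp1 by 0.60, Prph2 by 0.60 and Prom1 by 0.44, with adjusted p in edgeR of 6.42e-08, 2.39e-06, 1.42e-06 and 7.63e-04. In the same CPM, Rom1 was lower in 6 of 6 retinas, Prph2 and Tulp1 in 5 and Prom1 in 3. Impg2 at -0.31 ± 0.14 (adjusted p 0.067 in edgeR) and Rp1l1 at -0.13 ± 0.15 (adjusted p 0.46) were not called. Impg2 was called in 6 of the alternatives, with RLE factors, no filter, the stricter cell limits, 2 groups in place of 4, and without ko/ko 2 or wt/wt 1, at -0.27 to -0.50 (adjusted p in edgeR 0.0089 to 0.043).

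The scaling decides part of this. TMM factors place the median of all genes at 0.09 on the log2 scale, whereas scaling to the UMI totals alone places it at 0.52 and turns the calls from 2408 higher and 2249 lower into 4441 higher and 1337 lower. Under the totals, Rp1 rose by 1.05, Cdhr1 and Impg1 still fell by 0.77 and 0.76, Rom1 by 0.29 and Prph2 by 0.16 (adjusted p 0.0449 in edgeR), all called. Tulp1 (-0.17) and Prom1 (-0.0044) were then no longer called, and Impg2 and Rp1l1 turned to 0.14 and 0.30, also not called. The plot of Malat1-rich against Malat1-poor rods shows the values under both scalings.

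**Figure D5:**
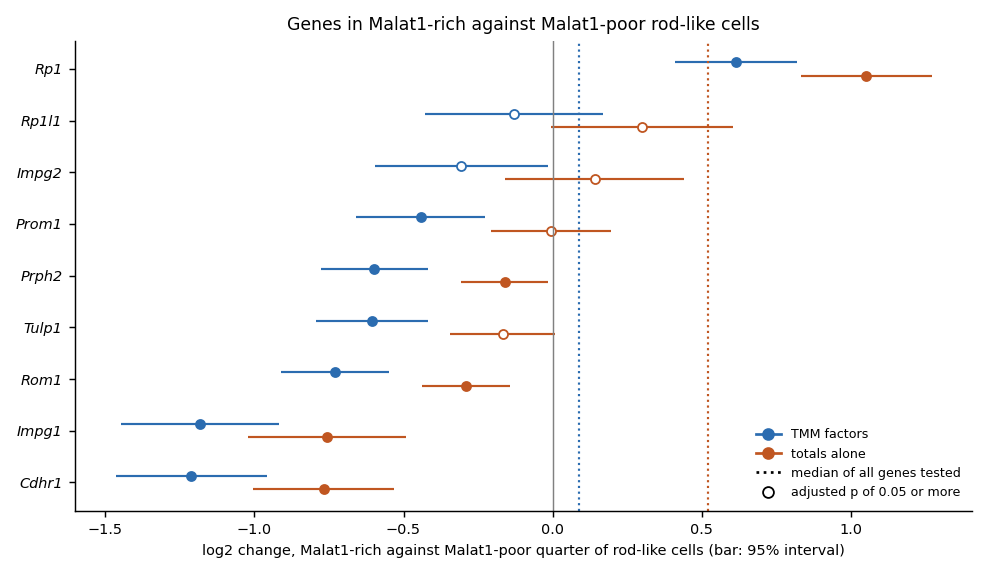
Log2 change of each gene between the Malat1-rich and the Malat1-poor group of rod-like cells (edgeR, retina as block), with 95% intervals, under TMM factors and under UMI totals alone. Filled points have an adjusted p under 0.05 and dotted lines are the medians of all genes tested, 0.09 and 0.52. Rp1 lies to the right of its median and Cdhr1 and Impg1 lie furthest to the left.

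Other outer segment genes were read between the same groups, beside 27.6% of all genes lower, 29.5% higher and a median of 0.09. These shares and the counts of the lists hold for TMM factors, and the totals alone move the calls over all genes towards higher, as given above. The list counts were not made under the totals. Of 19 disc and membrane genes tested, 13 were lower and 1 (Atp8a2) higher in Malat1-rich rods, with a median of -0.57. Of 11 cilium and axoneme partners, 6 were higher (Rpgr, Rpgrip1, Cep290, Mak, Pcdh15 and Tub) and 3 lower (Arl3, Unc119 and Fscn2), with a median of 0.49. Both matrix genes tested, Rbp3 and Egflam, were lower, by 1.56 and 0.71. Between the genotypes, 0 of 19 disc, 0 of 11 cilium and 0 of 4 matrix genes were called in rod-like cells, with medians of 0.13, -0.10 and 0.16 beside -0.01 over all genes.

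Likeness of pattern was measured as Pearson's r of log2(CPM + 10) over 36 sums, 6 retinas in each of rod-like cells, cone-like cells and the 4 other types, among 7919 genes with at least 500 UMIs. The sums share libraries and the large step between photoreceptors and other cells, so that r is a description. Among the 9 genes, Prph2 and Rom1 were closest (r = 0.95), and the closest to Cdhr1 was Impg2 (0.88), the other gene that stood higher in cones in all retinas. Outside the 9, the closest gene was Fam57b for Prph2 (0.97), 1810009A15Rik for Rom1 (0.95), Impdh1 for Rp1l1 (0.87) and Xiap for Prom1 (0.87). It was Rbp3, the retinoid-binding protein of the interphotoreceptor matrix, for Cdhr1 (0.89), Rtbdn for Tulp1 (0.96), Frmpd2 for Impg1 (0.93) and Uckl1os for Impg2 (0.90). The lowest r between any 2 of the 9 genes was 0.56, between Prom1 and Cdhr1.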

How the data were processed

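Single-cell libraries of 6 retinas were made by the authors with the 10x Genomics 3′ v2 kit and processed with Cell Ranger 3.1.0 against GRCm38, counting exonic reads. The deposited table holds raw UMI counts per gene and cell, with the authors' cell types for 45746 cells; 629 cells had no type. Cell names are numbers, so shared barcodes could not be counted. UMIs were summed per retina and class and given as CPM of that sum. Photoreceptors were clustered in scanpy 1.11.5 (2000 variable genes, 30 components, 15 neighbours, resolution 1). Genotypes were compared with edgeR 4.0.16 (quasi-likelihood test, TMM, filterByExpr, Benjamini-Hochberg, threshold 0.05), with limma 3.58.1 and DESeq2 1.42.0 as alternatives. The tests were also run on simulated counts, with planted changes larger than those of the 9 genes between genotypes and without batch. That run does not show whether small changes would be found. Scrublet marked 3 cells as doublets and none were removed; as an alternative, the top 5% by doublet score in each retina were left out. The named genes are the 9 members and fixed lists of outer segment genes, all chosen with earlier results of these data known, and the genes of closest pattern by correlation. Each retina held 3463728 to 6563762 UMIs, and limits at 0 UMIs cover counting error only. The deposited counts of Dram2 give no read positions. Reads inside and outside the deletion cannot be told apart, so these counts do not check the genotype. Some values of single genes outside the 9 are not reported here.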

Additional observations from a re-analysis of the deposited data

Results flagged for a closer look

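The cone-rod difference of Prom1 had 1 retina far from the others: it was -0.58 in ko/ko replicate 1 and -0.84 to -0.91 in the other 5, a gap of 0.78 of the whole range and above the 95% critical value of Dixon's test for 6 samples. This was 1 of 18 sets of values examined, and chance flags about 1 in 20.

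The 629 cells without a type were used in no comparison, and the 9 genes together took a mean of 20145 CPM there (18971 to 22717 by retina), against 16986 to 21789 in photoreceptors.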

How the results depend on the processing

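All 9 genes were highest in photoreceptors, and the same sign of the mean cone-rod difference was found for each, under the alternatives run. The type next to photoreceptors stayed the same under these only for Prph2, Rom1 and Prom1. With the 8 rod markers, 9 in place of 7 genes exceeded the number expected from rod RNA in all 6 retinas of cone-like cells. None of the 9 was called between genotypes under any alternative. Of their log2 changes in photoreceptors, rods and cones, 264 kept and 6 turned their sign under settings other than a left-out retina, and 126 kept and 36 turned it without 1 retina. The turned values were, for Prom1 in photoreceptors, -0.0098 in limma-voom, -0.0279 with totals alone, -0.0025 with batch as a covariate and -0.0073 with the replicate block, for Cdhr1 in photoreceptors -0.0269 with totals alone, and for Prom1 in cones -0.0182 with the second cone-led cluster. Leaving out 1 retina gave ranges of Prph2 -0.0091 to 0.34, Prom1 -0.14 to 0.15, Cdhr1 -0.17 to 0.40, Tulp1 -0.23 to 0.057, Impg1 -0.96 to 0.20, Impg2 -0.46 to 0.24 in photoreceptors, then Prph2 -0.053 to 0.33, Prom1 -0.17 to 0.13, Cdhr1 -0.13 to 0.45, Tulp1 -0.23 to 0.047, Impg1 -0.95 to 0.21, Impg2 -0.46 to 0.25 in rods, then Rp1 -0.62 to 0.0093, Prom1 -0.018 to 0.16, Cdhr1 -0.17 to 0.22, Tulp1 -0.26 to 0.066, Impg2 -0.44 to 0.18 in cones.

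Calls over all genes between genotypes were 0 and became 1 in photoreceptors, 1 in interneurons, 28 in mesenchymal cells, 3 in RPE cells and 1 in rods with no filter, 21 and 3 in mesenchymal and RPE cells with batch as a covariate, 26 and 4 with the replicate block, and 1 in RPE cells in DESeq2. Without 1 retina they ran from 0 to 7 in mesenchymal cells (7 without ko/ko 2), 0 to 2 in RPE cells (2 without wt/wt 3) and 0 to 9 for the interaction (9 without wt/wt 3). Deviations of same-numbered retinas in photoreceptors had r of -0.067, 0.537 and 0.520, while ko/ko 2 with wt/wt 1 had 0.503. Replicate 3 is batch 1 in both genotypes, so that this number goes with batch. Deviations within a genotype are tied to each other, so these values cannot decide whether replicate numbers pair the retinas. Calls between the Malat1-rich and Malat1-poor groups fell from 4657 to 3031 when cells under 500 UMIs or above 10% mitochondrial UMIs were left out, and ran from 4214 to 4716 without 1 retina. Rp1l1 and Impg2 turned to 0.30 and 0.14 with totals alone, and Rp1l1 ran from -0.22 to 0.011 without 1 retina (0.011 without wt/wt 3). The cause of these shifts was not tested. The totals, the 8 markers and the second cluster were chosen after seeing the data.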
